A study of Homo sapiens with 12 samples.

Results

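The circadian clock genes described here are 10 listed genes of the repressive arm and output of the molecular clock, namely PER1, PER2, PER3, CRY1, CRY2, NR1D1, NR1D2, DBP, BHLHE40 and BHLHE41. They were matched by symbol among 54127 genes counted, and the list was chosen with earlier results of these data known. All 10 were among the 14505 genes with enough reads to be tested. RNA-seq was performed on C4-2 cells, a subline of the prostate cancer line LNCaP that responds to androgens, grown in RPMI medium with 10% FBS. One group received DMSO, the vehicle, and the other received PBKi at 1 µM, and the methods of the study give 6 h of treatment. PBKi is TOPK-32, a small molecule inhibitor of PDZ binding kinase (PBK). Each group held 6 libraries of this single cell line at a single time point. No source states that the cells were synchronised, that replicates came from separate cultures, or by which gate the cells that the labels call flow sorted were chosen. The p-values therefore measure the spread between these libraries, which may be technical. In such bulk samples, fewer cells that express a gene and less RNA per cell cannot be told apart.

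The clock is a feedback loop of transcription. CLOCK and BMAL1 bind E-boxes and activate the PER, CRY, NR1D, DBP and BHLHE genes, and the PER and CRY proteins then enter the nucleus and repress CLOCK and BMAL1. A second loop runs through the NR1D (REV-ERB) repressors and the ROR activators, which compete for ROR elements, among others at BMAL1. DBP and its relatives HLF and TEF activate genes through D-boxes, at which NFIL3 represses. Most tissues and many cultured lines run this loop, and without a synchronising signal the cells of a culture drift out of phase with each other.

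Promoter sequence is shown for 4 of the genes described below, because PER1, PER2 and BHLHE41 are those whose groups did not overlap and NR1D2 is the other gene that rose. RefSeq windows from 250 bases before to 50 bases after a start site were matched by symbol for all 10 genes (13 windows) and each had 1 exact match in GRCh37. The first 260 bases of each are printed 5′ to 3′ on the strand of the gene, with motif matches in capitals. The PER1 stretch is at chr17:8055713-8055972 on the minus strand, the PER2 stretch at chr2:239197242-239197501 on the minus strand and the BHLHE41 stretch at chr12:26277961-26278220 on the minus strand. The NR1D2 stretch, before the second of its listed start sites, is at chr3:23987362-23987621 on the plus strand.
PER1: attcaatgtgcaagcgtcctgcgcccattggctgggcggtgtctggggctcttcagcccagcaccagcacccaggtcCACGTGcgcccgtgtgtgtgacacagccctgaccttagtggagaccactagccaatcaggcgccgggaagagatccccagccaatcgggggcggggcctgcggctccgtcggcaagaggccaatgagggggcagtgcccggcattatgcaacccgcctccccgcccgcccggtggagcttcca
PER2: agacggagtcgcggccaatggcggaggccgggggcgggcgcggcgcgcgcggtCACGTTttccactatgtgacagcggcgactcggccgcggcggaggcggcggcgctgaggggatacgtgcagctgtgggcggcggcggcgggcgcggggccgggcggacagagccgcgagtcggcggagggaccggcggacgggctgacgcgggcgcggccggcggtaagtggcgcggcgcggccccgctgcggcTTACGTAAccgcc
BHLHE41: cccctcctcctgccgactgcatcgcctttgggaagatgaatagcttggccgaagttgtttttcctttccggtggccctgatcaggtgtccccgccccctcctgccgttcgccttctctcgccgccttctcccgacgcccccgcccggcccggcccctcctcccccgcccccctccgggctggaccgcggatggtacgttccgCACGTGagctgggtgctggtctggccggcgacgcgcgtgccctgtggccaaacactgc
NR1D2: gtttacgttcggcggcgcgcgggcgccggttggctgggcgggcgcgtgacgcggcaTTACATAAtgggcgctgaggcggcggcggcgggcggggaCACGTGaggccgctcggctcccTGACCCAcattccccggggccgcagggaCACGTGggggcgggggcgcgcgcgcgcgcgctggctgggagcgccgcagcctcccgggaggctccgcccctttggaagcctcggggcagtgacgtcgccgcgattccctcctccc
The capitals in PER1 mark 1 E-box, CACGTG, which began 173 bases before the start site, and those in BHLHE41 mark 1 E-box that began 48 bases before it. In PER2 they mark CACGTT, an E-box variant, 197 bases before the start and TTACGTAA, a D-box, which spans the start site. In NR1D2 they mark a pair of E-boxes, 155 and 105 bases before the start, the D-box TTATGTAA read on the other strand as TTACATAA, and the ROR element core TGGGTCA read on the other strand as TGACCCA.

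Both strands of every window were searched, and no motif matches overlapped in the stretches shown. CACGTG was found for 4 of the 10 genes (PER1, BHLHE40, BHLHE41 and NR1D2) and in 7.26% of all 35116 RefSeq windows. The variant CACGTT was found for 4 others (PER2, CRY1, CRY2 and NR1D1) and in 5.34% of all windows. TTACGTAA was found for PER2 alone among the 10 genes and in 0.125% of all windows, and TTATGTAA for PER3 and NR1D2 and in 0.886%. The ROR element cores were TAGGTCA, found for CRY2 and in 1.85% of all windows, and TGGGTCA, found for NR1D2 and in 3.92%. Neither the CRE TGACGTCA, present in 1.85% of all windows, nor the androgen response element, present in 0.00285%, was found for any of the 10. The DBP window held none of these motifs. Of the genes with 2 windows, none of the motifs was found in the first window of NR1D2 or CRY2 or in the second of PER3. In the form searched, the androgen response element was in only 1 of all 35116 windows. Whether looser forms of this element lie in the windows of the 10 genes was not tested. Windows of genes that rose and of genes that fell both held E-boxes. A match is a string of letters and not a measured binding site.

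Libraries held 9663203 to 28029908 reads on genes in DMSO and 13122415 to 22817803 in PBKi. Levels are given as CPM, the reads of a gene scaled to the size of its library and, by TMM factors, to its composition. Differences are log2 fold changes of PBKi against DMSO. They were tested by quasi-likelihood in edgeR, adjusted after Benjamini and Hochberg over all 14505 genes, and called at an adjusted p under 0.05. Beside it stands a two-sided exact permutation test over the 12 libraries, whose smallest possible p is 0.00216. Luminal prostate epithelial markers (8 of 8 detected) summed to 4373 to 5140 CPM in DMSO and to 2029 to 2917 CPM in PBKi. Of these 8, 5 were called lower and 1 higher, beside 21.5% and 20.1% of all genes tested, and 2 were not called. KLK3 was the largest member of the sum, with means of 2959 CPM in DMSO and 1131 CPM in PBKi. FOLH1 was the 1 called higher (means of 506 and 634 CPM), and KRT8 and EPCAM were not called. The part of this sum in the results on clock genes was not tested. Of the markers of other cell types, 0 of 6 immune markers passed the count minimum and MS4A1 was at 0 in every library. Basal markers (1 of 4 tested) summed to at most 1.84 CPM, endothelial markers (1 of 4 tested, 1 of 4 not matched by name) to at most 7.25 CPM and stromal markers (2 of 6 tested) to 19.3 to 26.1 CPM over both groups. The transcript of PBK itself, whose protein is what the drug inhibits, was 219 ± 37.2 CPM in DMSO and 165 ± 15.1 CPM in PBKi (SD, n = 6 each).

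Of the 10 clock genes, 6 were called between the groups. PER1, PER2, CRY1 and DBP were lower in PBKi, whereas NR1D2 and BHLHE41 were higher, and PER3, CRY2, NR1D1 and BHLHE40 were not called. This was 2 of 10 higher, where 20.1% of all genes tested were called higher, and 4 of 10 lower, where 21.5% were called lower. The 6 libraries of each group did not overlap for PER1 and PER2, lower in PBKi, and for BHLHE41, higher in PBKi, where 9.68% of all genes tested lay wholly lower and 10.5% wholly higher. The median log2 fold change of the 10 genes was -0.12, beside -0.01 over all genes tested, and their median absolute log2 fold change was 0.33, beside 0.19. The share of calls in PBKi is therefore to be read against a transcriptome of which a large part was called.

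**Figure D1:**
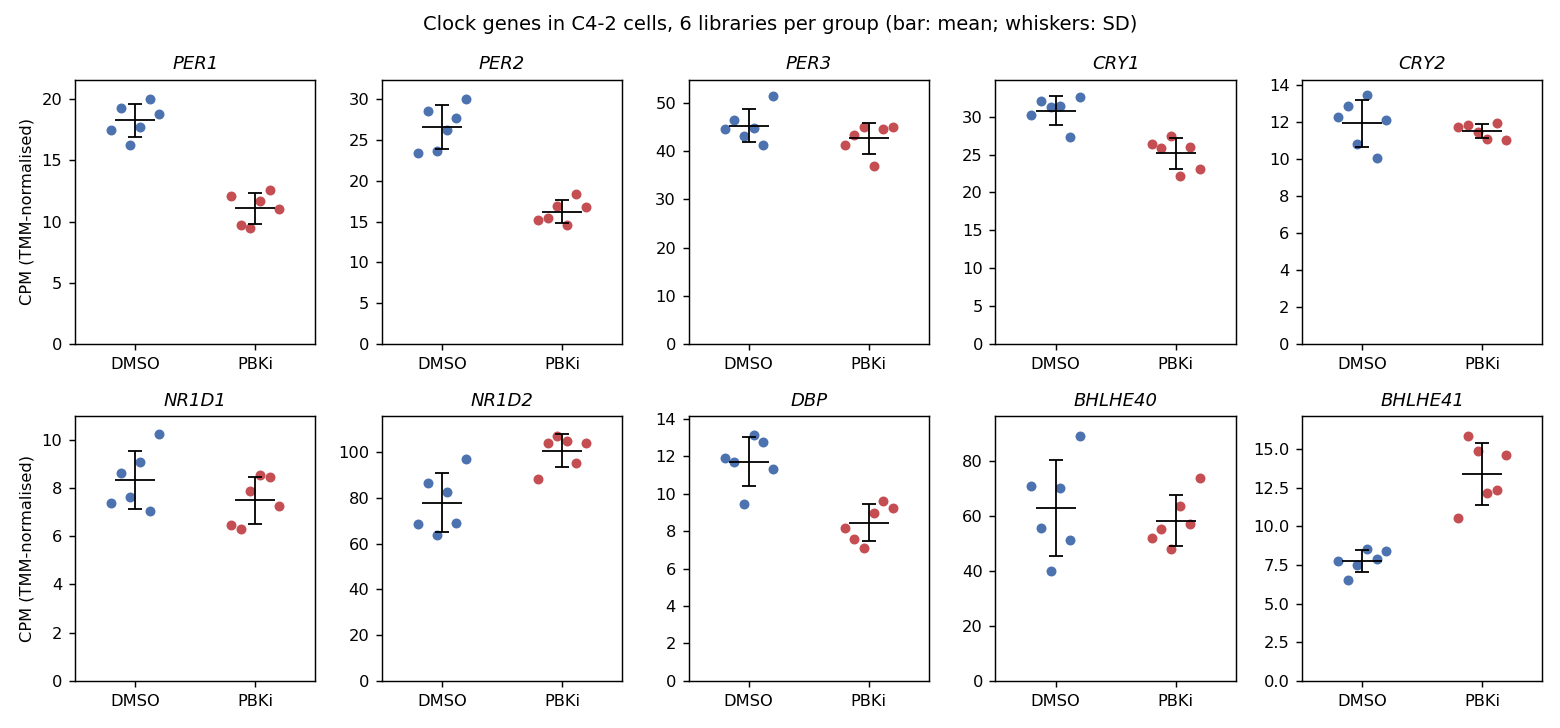
Level of each of the 10 clock genes in CPM (vertical axes, linear and from 0) in the 6 DMSO and 6 PBKi libraries, with 1 point per library, the mean as a bar and the SD as whiskers. All PBKi points of PER1 and PER2 lie below, and all PBKi points of BHLHE41 above, the DMSO points of the same gene.

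The 3 PER genes encode the period proteins, which repress CLOCK and BMAL1 in complexes with CRY proteins. PER1 (ENSG00000179094, GRCh37 chromosome 17, 8043790 to 8059824, minus strand) had a lowest, median and highest level of 16.2, 18.3 and 20.02 CPM in DMSO and of 9.45, 11.3 and 12.6 CPM in PBKi. Every PBKi library was below every DMSO library. The mean fell from 18.3 ± 1.38 to 11.1 ± 1.27 CPM (SD, n = 6 each), a change of -39.2%, at a log2 fold change of -0.71 (SE 0.083, adjusted p = 2.92e-06 from edgeR, exact permutation p = 0.00216).

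PER2 (ENSG00000132326, chromosome 2, 239152685 to 239198743, minus strand) fell by nearly the same proportion. Its levels ran from 23.4 over a median of 26.9 to 30.0 CPM in DMSO and from 14.6 over 16.1 to 18.4 CPM in PBKi, again without overlap. The mean went from 26.6 ± 2.70 to 16.2 ± 1.38 CPM (SD, n = 6 each), which is -39.0% and -0.70 as a log2 fold change (SE 0.078, adjusted p = 1.75e-06 from edgeR, exact permutation p = 0.00216). PER1 and PER2 are the PER genes known to respond quickly to outside signals such as glucocorticoids and cAMP.

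PER3 (ENSG00000049246, chromosome 1, 7844351 to 7905237, plus strand) is the PER gene that is dispensable for the rhythm of mice. It had 41.3, 44.7 and 51.4 CPM as its lowest, median and highest DMSO level and 36.9, 43.95 and 45.0 CPM in PBKi. These ranges overlapped for most libraries. The log2 fold change was -0.09 (SE 0.064, adjusted p = 0.288 from edgeR, exact permutation p = 0.238), so a change was not shown. Of the exon bases of PER3, 10.7% are shared with UTS2 on the opposite strand, and the strand setting of the counting is not given in the sources used here.

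The different behaviour of PER3 was itself tested within libraries, where scaling cancels. The log2 ratio of PER1 to PER3 went from -1.31 ± 0.144 in DMSO libraries to -1.94 ± 0.232 in PBKi libraries (SD, n = 6 each), a difference of -0.63 (SE 0.111, adjusted p = 0.00325 over the 6 paralogue pairs, two-sided exact permutation test). For PER2 to PER3 the ratio went from -0.77 ± 0.125 to -1.39 ± 0.0769, a difference of -0.62 (SE 0.060, same test, adjusted p = 0.00325). Both ratios were lower in all 6 PBKi libraries than in any DMSO library. By contrast, the log2 ratio of PER1 to PER2 was -0.54 ± 0.0882 in DMSO and -0.55 ± 0.198 in PBKi, a difference of -0.01 (SE 0.088, exact permutation p = 0.887), so a difference between the falls of PER1 and PER2 was not shown. Per kb of exon, PER3 made up 46.7% ± 2.17 of the summed PER level in DMSO and 57.5% ± 2.15 in PBKi, while the sum went from 11.9 ± 0.833 to 9.12 ± 0.546 CPM per kb (SD, n = 6 each).

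The cryptochromes CRY1 and CRY2 are the partners of the PER proteins, and CRY1 is the stronger repressor of CLOCK and BMAL1. CRY1 (ENSG00000008405, chromosome 12, 107385142 to 107487327, minus strand) had a lowest, median and highest level of 27.3, 31.3 and 32.6 CPM in DMSO and of 22.2, 26.0 and 27.4 CPM in PBKi. Of the PBKi libraries, 5 of 6 lay below the lowest DMSO library, and replicate 3, the highest, lay just above it. The mean was 30.8 ± 1.89 CPM in DMSO and 25.2 ± 2.04 CPM in PBKi (SD, n = 6 each), which is -18.3% and -0.29 as a log2 fold change (SE 0.065, adjusted p = 0.00166 from edgeR, exact permutation p = 0.00433).

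CRY2 (ENSG00000121671, chromosome 11, 45868669 to 45904799, plus strand) ran from 10.1 over 12.2 to 13.4 CPM in DMSO and from 11.01 over 11.6 to 11.9 CPM in PBKi. The PBKi libraries lay inside the DMSO range, and the log2 fold change was -0.05 (SE 0.077, adjusted p = 0.601 from edgeR). The log2 ratio of CRY1 to CRY2 went from 1.36 ± 0.112 to 1.12 ± 0.0848 (SD, n = 6 each), a difference of -0.25 (SE 0.057, adjusted p = 0.00520 over the 6 pairs, two-sided exact permutation test), although the ranges of the groups overlapped. CRY1 thus moved relative to CRY2, by less than PER1 and PER2 moved relative to PER3 in point estimate, a difference that was not tested.

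NR1D1 and NR1D2 encode REV-ERB alpha and beta, nuclear receptors that bind haem and repress BMAL1 and other genes with ROR elements. NR1D2 (ENSG00000174738, chromosome 3, 23986777 to 24022108, plus strand) was at 63.6, 75.7 and 97.2 CPM as lowest, median and highest in DMSO and at 88.3, 104 and 107 CPM in PBKi. Of the PBKi libraries, 4 of 6 were above every DMSO library, and DMSO replicate 6 was the one DMSO library within the PBKi range. The mean rose from 77.8 ± 12.9 to 100.6 ± 7.30 CPM (SD, n = 6 each), which is 29.2% more and 0.37 as a log2 fold change (SE 0.089, adjusted p = 0.00275 from edgeR, exact permutation p = 0.00649). In replicates 4 to 6 alone the log2 fold change was 0.29 and the call was lost (adjusted p = 0.0875 from edgeR).

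NR1D1 (ENSG00000126368, chromosome 17, 38249046 to 38256842, minus strand) did not share this rise. It ran from 7.03 over 8.12 to 10.2 CPM in DMSO and from 6.29 over 7.56 to 8.52 CPM in PBKi, at a log2 fold change of -0.14 (SE 0.108, adjusted p = 0.325 from edgeR). Its exons share 473 bases, 18.0% of their length, with THRA, a thyroid hormone receptor gene on the opposite strand. The log2 ratio of NR1D1 to NR1D2 went from -3.20 ± 0.0924 to -3.73 ± 0.189 (SD, n = 6 each), a difference of -0.53 (SE 0.086, adjusted p = 0.00325 over the 6 pairs, two-sided exact permutation test). No PBKi library reached the lowest ratio of a DMSO library. Per kb, NR1D2 was 80.9% ± 1.00 of the summed NR1D level in DMSO and 85.9% ± 1.59 in PBKi.

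BHLHE40 (DEC1) and BHLHE41 (DEC2) encode basic helix-loop-helix repressors that compete with CLOCK and BMAL1 for E-boxes. BHLHE41 (ENSG00000123095, chromosome 12, 26272963 to 26277970, minus strand) rose in PBKi and had the largest absolute log2 fold change of the 10 genes. Its lowest, median and highest levels were 6.51, 7.84 and 8.52 CPM in DMSO and 10.5, 13.5 and 15.8 CPM in PBKi, so the groups lay apart. The mean was 7.76 ± 0.725 CPM in DMSO and 13.4 ± 2.03 CPM in PBKi (SD, n = 6 each), which is 72.4% more and 0.79 as a log2 fold change (SE 0.102, adjusted p = 9.47e-06 from edgeR, exact permutation p = 0.00216). Behind these values stood 73 to 351 reads per library. Genes whose log2 levels, centred on the DMSO mean, ran most like those of BHLHE41 over the 12 libraries were ARHGAP29, FNIP2 and ATP2B1, with mean absolute differences of 0.0929, 0.0948 and 0.0952 among 9997 genes above a minimum level. Their log2 fold changes were 0.72, 0.74 and 0.79. The measure takes in the shift between the groups, so it does not show that genes vary together within a group.

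BHLHE40 (ENSG00000134107, chromosome 3, 5021122 to 5027008, plus strand) varied more within a group than between the groups. It ran from 40.2 over 63.0 to 89.3 CPM in DMSO and from 48.1 over 56.2 to 73.9 CPM in PBKi, so the DMSO range enclosed the PBKi range. The log2 fold change was -0.11 (SE 0.149, adjusted p = 0.595 from edgeR), and it was 0.03 without DMSO replicate 6, the highest library. Of its exon bases, 12.8% are shared with BHLHE40-AS1 on the opposite strand. The log2 ratio of BHLHE40 to BHLHE41 went from 2.96 ± 0.357 to 2.11 ± 0.298 (SD, n = 6 each), a difference of -0.84 (SE 0.190, adjusted p = 0.00325 over the 6 pairs, two-sided exact permutation test) without overlap. Per kb, BHLHE41 made up 10.6% ± 2.43 of the summed level of both genes in DMSO and 17.5% ± 3.10 in PBKi.

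**Figure D2:**
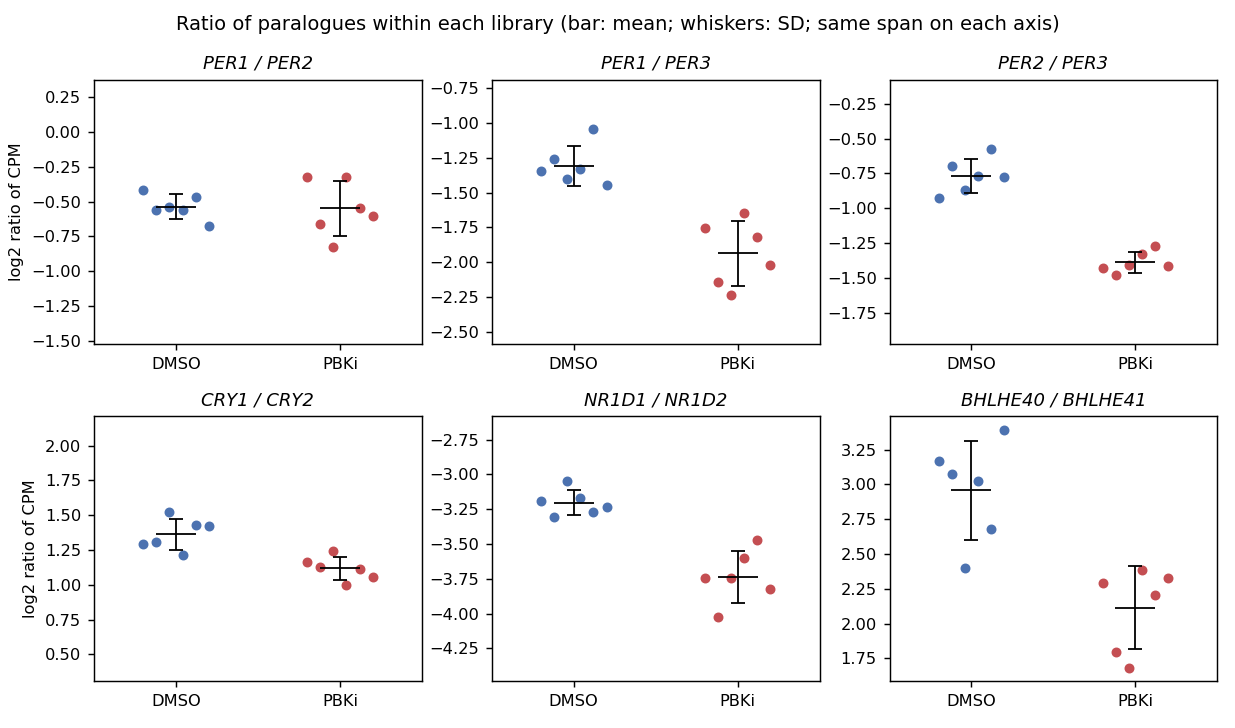
Log2 ratio of CPM of 6 pairs of paralogues within each library (vertical axes, all with the same span but different centres), with 1 point per library, the mean as a bar and the SD as whiskers. The PER1 to PER2 ratios of both groups cover each other, the CRY1 to CRY2 ratios overlap in part, and the other 4 ratios lie wholly lower in PBKi.

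DBP is a PAR bZIP activator of D-box genes, and its transcript is a direct output of CLOCK and BMAL1. DBP (ENSG00000105516, chromosome 19, 49133287 to 49140636, minus strand) had 9.45, 11.8 and 13.2 CPM as its lowest, median and highest level in DMSO and 7.08, 8.58 and 9.60 CPM in PBKi. Of the PBKi libraries, 5 of 6 lay below the lowest DMSO library, replicate 3, and PBKi replicate 5 lay above it. The mean fell from 11.7 ± 1.30 to 8.44 ± 0.987 CPM (SD, n = 6 each), which is -27.9% and -0.46 as a log2 fold change (SE 0.098, adjusted p = 0.00111 from edgeR, exact permutation p = 0.00433). Of its exon bases, 10.2% are shared with SPHK2, a sphingosine kinase gene on the opposite strand.

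The other D-box factors form a list of 3 genes, of which 1 was called higher and 2 lower (20.1% and 21.5% of all genes tested), all without overlap between the groups (10.5% of all genes wholly higher and 9.68% wholly lower). HLF, an activator, ran from 26.5 to 29.8 CPM in DMSO and from 14.8 to 17.4 CPM in PBKi, at a log2 fold change of -0.75 (SE 0.060, adjusted p = 3.97e-08 from edgeR). TEF, the remaining activator, ran from 25.2 to 34.1 CPM in DMSO and from 20.6 to 24.3 CPM in PBKi, at a log2 fold change of -0.38 (SE 0.080, adjusted p = 9.17e-04 from edgeR). All 3 D-box activators, DBP included, were therefore called lower. NFIL3, the repressor at the same sites, moved the other way, from 10.5 to 13.4 CPM in DMSO to 19.7 to 26.7 CPM in PBKi, at a log2 fold change of 0.85 (SE 0.086, adjusted p = 5.76e-07 from edgeR).

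On a scale per kb of exon, the summed level of DBP, HLF and TEF was 12.1 ± 1.03 CPM per kb in DMSO and 8.44 ± 0.481 in PBKi, and that of NFIL3 was 5.93 ± 0.596 and 10.7 ± 1.23 (SD, n = 6 each). The ratio of the activators' sum to NFIL3 was 1.73 to 2.52 in the DMSO libraries and 0.601 to 0.887 in the PBKi libraries. With canonical transcript lengths it was 2.38 to 3.53 and 0.826 to 1.26. The ratio was thus lower in every PBKi library at either length, but whether NFIL3 exceeded the activators in PBKi depended on the length used, mainly that of DBP. This ratio was formed after the 4 genes had been seen to move and is a description with no test. Protein levels and D-box binding were not measured here.

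**Figure D3:**
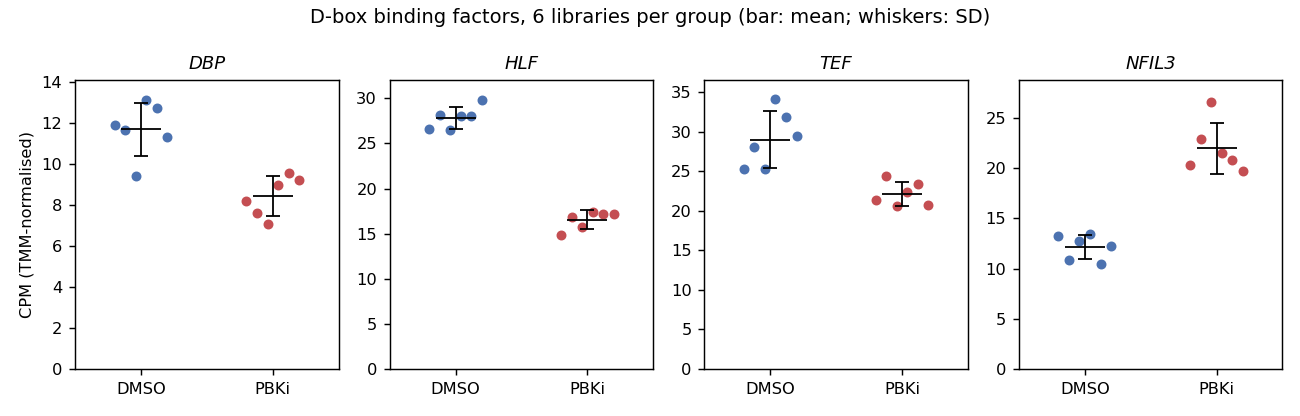
Levels of the D-box activators DBP, HLF and TEF and of the D-box repressor NFIL3 in CPM (vertical axes, linear and from 0), with 1 point per library, the mean as a bar and the SD as whiskers. HLF and TEF lie wholly lower and NFIL3 wholly higher in the 6 PBKi libraries than in the 6 DMSO libraries, and DBP overlaps by 1 library of each group.

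Of the 4 activators of the core loop, 1 was called higher and 1 lower, both near the threshold, where 20.1% and 21.5% of all genes tested were called. BMAL1, the obligate partner of CLOCK and the main target of the NR1D receptors, was 19.5 ± 1.66 CPM in DMSO and 19.9 ± 0.969 CPM in PBKi (SD, n = 6 each), at a log2 fold change of 0.02 (SE 0.067, adjusted p = 0.829 from edgeR), and its point estimate was -0.00048 without DMSO replicate 5. CLOCK was 44.3 ± 6.07 and 51.3 ± 5.13 CPM, with overlapping groups and a log2 fold change of 0.22 (SE 0.086, adjusted p = 0.0490 from edgeR, exact permutation p = 0.0563). The CLOCK call was lost without DMSO replicate 1, 2 or 3 or PBKi replicate 2, 3, 4, 5 or 6. Log2 fold changes were then 0.18 to 0.24 (adjusted p 0.0536 to 0.122 from edgeR). With the replicate number as a block CLOCK was called, at 0.22 (adjusted p = 0.00427 from edgeR). It was 0.34 in replicates 1 to 3 alone (adjusted p = 0.00333 from edgeR). In replicates 4 to 6 alone it was 0.12 and not called (adjusted p = 0.413 from edgeR). The groups of BMAL2, a paralogue of BMAL1, did not overlap at 51.6 ± 1.49 and 46.9 ± 2.17 CPM, where 9.68% of all genes tested lay wholly lower. Its log2 fold change was -0.14 (SE 0.048, adjusted p = 0.0301 from edgeR). The BMAL2 call was lost without DMSO replicate 1, 2 or 4 or PBKi replicate 1, 2, 3 or 5 (log2 fold change -0.14 to -0.11, adjusted p 0.0539 to 0.104 from edgeR). It was also lost without both PBKi replicates 3 and 6, without a count filter and at a minimum of 50 counts. In replicates 1 to 3 alone BMAL2 was called, at -0.17 (adjusted p = 0.0373 from edgeR). In replicates 4 to 6 alone BMAL2 was not called, at -0.098 (adjusted p = 0.423 from edgeR). NPAS2, which can stand in for CLOCK, was not called (log2 fold change -0.14, adjusted p = 0.361 from edgeR). The point estimates of the activators were smaller in size than those of PER1, PER2 and BHLHE41, and that contrast was not tested.

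Genes that act on the PER and CRY proteins made up the longest list. Of 18 tested, 9 were called lower and 1 higher, beside 21.5% and 20.1% of all genes tested, and the median log2 fold change was -0.13. The 4 without overlap, where 9.68% of all genes lay wholly lower, were CSNK1E, a casein kinase that marks PER proteins for degradation (log2 fold change -0.29, adjusted p = 2.99e-04 from edgeR), TIMELESS (-0.25, adjusted p = 0.00238), CSNK2A1, a catalytic subunit of casein kinase II (-0.21, adjusted p = 0.00338), and FBXW11, an F-box protein of the ligase that degrades PER proteins (-0.14, adjusted p = 0.0299). The FBXW11 call was lost without DMSO replicate 4, 5 or 6 or PBKi replicate 1, 2, 3 or 4 (log2 fold change -0.14 to -0.11, adjusted p 0.0505 to 0.0887 from edgeR). The differences of those named were smaller than the fall of PER1 or PER2 in point estimate. TIMELESS also acts at replication forks.

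Of 11 cofactors of the clock complexes, 1 was called higher and 3 lower, or 9.09% and 27.3%, beside 20.1% and 21.5% of all genes tested. HDAC3, the deacetylase recruited by the NR1D receptors, changed by -0.24 in log2 (adjusted p = 3.74e-04 from edgeR). NONO, a PER-binding RNA-binding protein, changed by -0.22 (adjusted p = 0.00238 from edgeR). Both were without overlap, where 9.68% of all genes tested lay wholly lower. Among the 7 input factors of the PER genes, 2 were called higher and 2 lower, again beside 20.1% and 21.5% of all genes. SIK1, a kinase that restrains CREB coactivators, was 23.4 ± 1.53 CPM in DMSO and 17.8 ± 1.06 CPM in PBKi (SD, n = 6 each), and its log2 fold change was -0.39 (adjusted p = 1.21e-04 from edgeR). NR3C1, the glucocorticoid receptor, which activates PER1, was close to undetected in DMSO, with 1 to 10 reads per library, and had 16 to 70 reads in PBKi. It reached the count minimum in 1 DMSO library and 6 PBKi libraries. It was therefore tested only because of the group in which it is high. Its call, 1 of the 2 higher, stays in the list counts. Neither that call nor its fold change is read as a result. Its mean was 0.229 ± 0.0975 and 1.60 ± 0.676 CPM (SD, n = 6 each). It remained far below every one of the 10 clock genes in CPM. Of 5 output genes tested, 2 were called higher and 1 lower (20.1% and 21.5% of all genes), all without overlap (10.5% and 9.68%), namely NAMPT, the rate-limiting enzyme of NAD salvage (log2 fold change 0.23, adjusted p = 0.00399 from edgeR), KLF10 (0.31, adjusted p = 3.07e-04) and the cell cycle kinase gene WEE1 (-0.21, adjusted p = 0.00296).

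Over all other clock genes listed, 8 were called higher and 18 lower of 50 tested, or 16% and 36%, beside 20.1% and 21.5% of all genes tested. The 8 include NR3C1. The median log2 fold change over the 50 was -0.05. When a log2 fold change of 0.5 or more in either direction was required as well, 3 of the 50 were left, namely HLF, NFIL3 and NR3C1. NR3C1 was tested only because of its PBKi libraries, so its place among the 3 is not read as a result. Of the 10 clock genes, PER1 and PER2, lower, and BHLHE41, higher, were left, where 4.32% of all genes tested were lower and 8.81% higher by this rule.

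**Figure D4:**
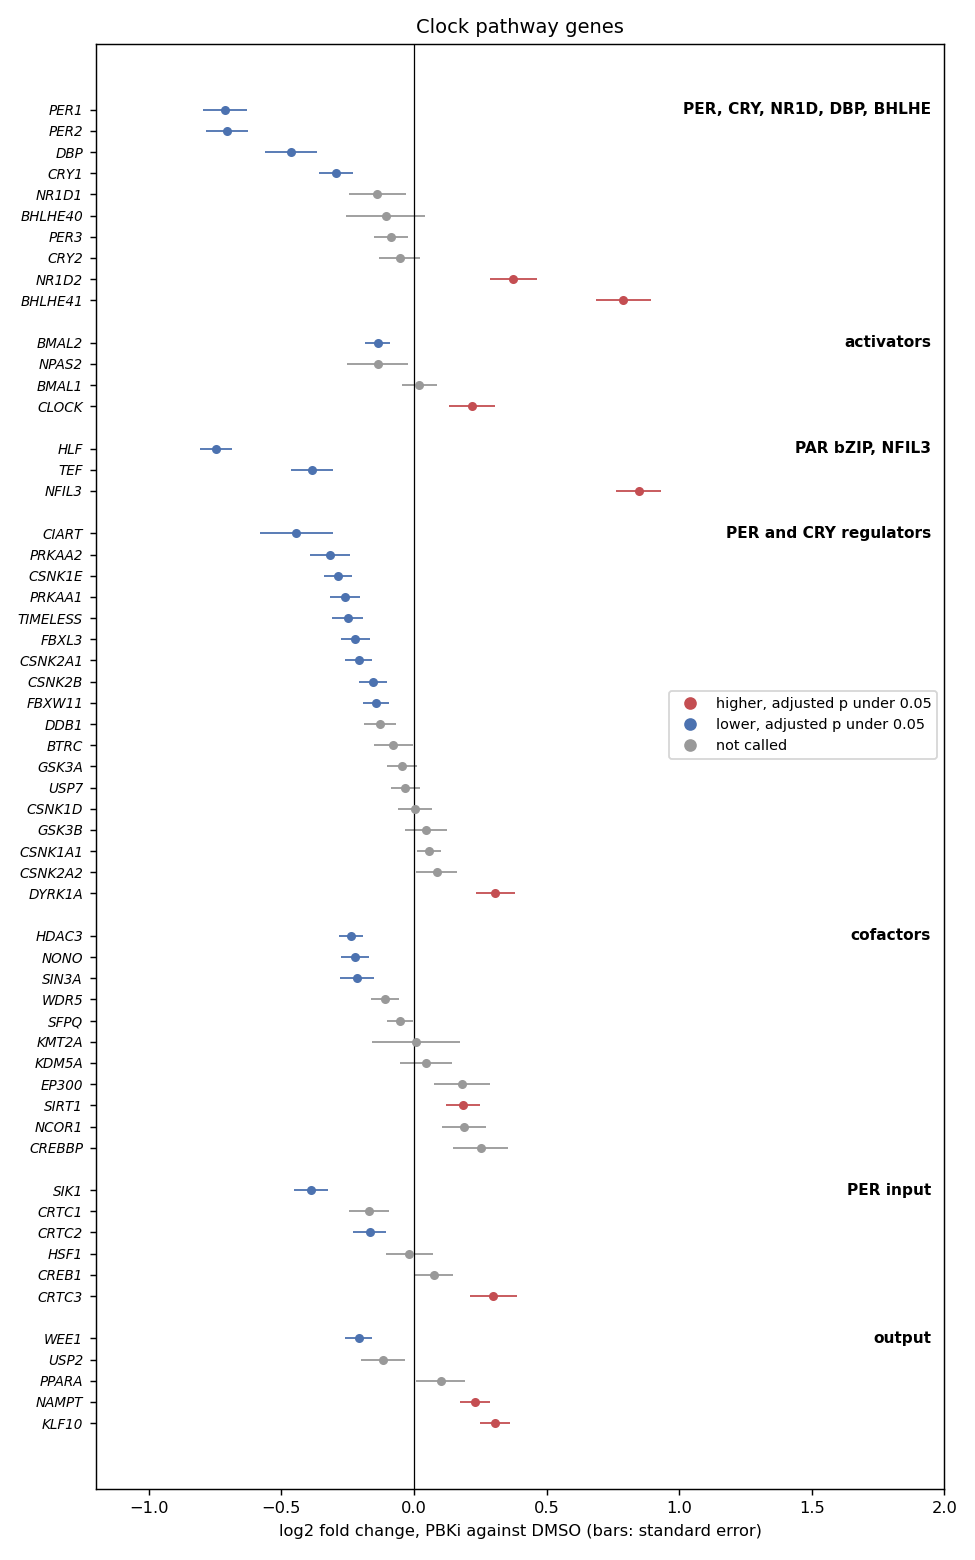
Log2 fold change of PBKi against DMSO (horizontal axis, with the standard error as bars) of the 10 clock genes and of the other clock genes in the groups described here, by role, with colour for the call at an adjusted p under 0.05. The D-box factors HLF and NFIL3 lie as far from 0 as PER1, PER2 and BHLHE41, and the other genes lie within 0.5 of 0. NR3C1 is left out for its few reads.

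Levels of different genes were compared per kb of exon, the union of all annotated exons of a gene. In DMSO the order was BHLHE40 at 17.9 CPM per kb, NR1D2 at 13.4, CRY1 at 6.44, PER3 at 5.57, PER2 at 3.75, NR1D1 at 3.17, PER1 at 2.61, BHLHE41 at 2.01, CRY2 at 1.92 and DBP at 1.81. The ranges of neighbours in this order overlapped except between NR1D2 and CRY1, between PER3 and PER2, and between PER1 and BHLHE41. In PBKi, BHLHE41 reached 3.47 CPM per kb, with a range of 2.73 to 4.11, above PER2 at 2.29 and PER1 at 1.58, whereas DBP remained last at 1.30. This order depends on the length used. Over canonical transcripts, DBP was at 5.40 CPM per kb in DMSO. PER1 at 3.90 then lay above NR1D1 at 3.17, and CRY2 at 2.89 above BHLHE41 at 2.07, which was last.

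**Figure D5:**
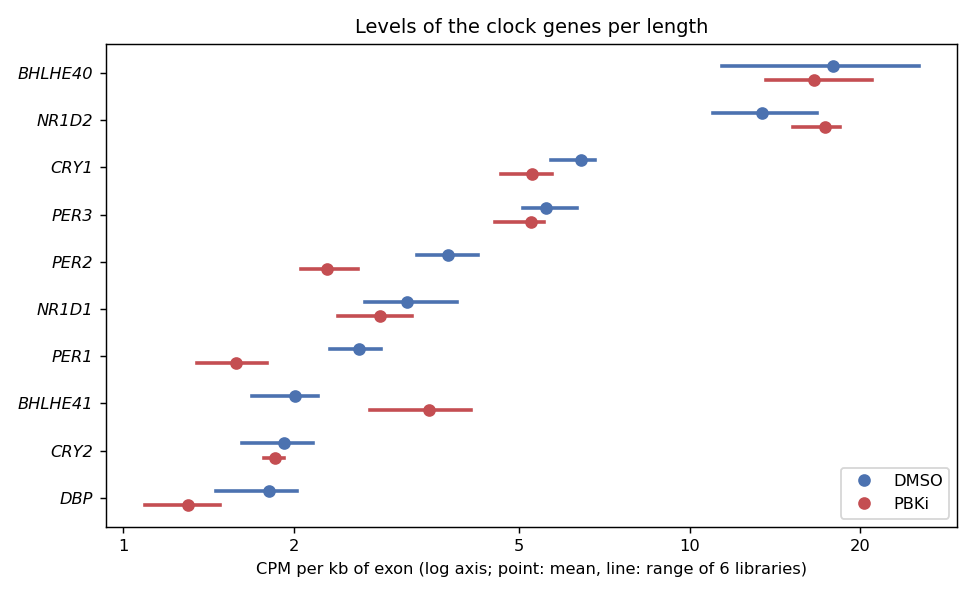
Level of the 10 clock genes in CPM per kb of exon (horizontal log axis) in DMSO and PBKi, with the mean of 6 libraries as a point and their range as a line, ordered by the DMSO mean. The PER1, PER2 and BHLHE41 lines of both groups do not overlap, and BHLHE41 goes from below PER1 and PER2 in DMSO to above both in PBKi.

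The libraries numbered 1 to 3 and 4 to 6 were known from earlier results of these data to form separate sets in both groups, so the changes were also taken within each set. Here they are differences of mean log2 CPM, so they depart somewhat from the edgeR fits on single sets given elsewhere. The changes in the first and second set were -0.76 and -0.68 for PER1, -0.66 and -0.75 for PER2, -0.23 and -0.35 for CRY1 and -0.52 and -0.42 for DBP. They were 0.46 and 0.30 for NR1D2 and 0.89 and 0.64 for BHLHE41. All 6 genes called thus kept their direction in both sets. PER3, CRY2, NR1D1 and BHLHE40 stayed between -0.20 and -0.03 in both. The difference of the changes between the sets, an interaction term in edgeR, was called for 0 of the 10 genes and for 0% of all genes tested (700 of 14505 had an unadjusted p under 0.05, and none of the 10 did, with a smallest p of 0.187 from edgeR). The labels do not say what the sets are.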

How the data were processed

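RNA-seq of 12 C4-2 libraries was analysed, 6 treated with DMSO and 6 with PBKi, grouped by their labels. The authors aligned single-end reads of 40 bases to GRCh37 (Ensembl 64) with TopHat2 2.0.4 and counted reads per gene with HTSeq 0.5.3p9. The deposited values are these counts, raw, in 47 lane tables, and the authors tested them with DESeq 1.10.1. Reads on exons of more than 1 gene (3.87% to 4.35%) and outside genes (5.74% to 9.30%) were left out of totals and tests. Lanes were technical repeats, since counts of lanes from 1 library had a chi-square of 0.993 to 1.02 per degree of freedom, and were summed. DMSO replicate 5 had 3 lanes and the others had 4.

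Genes that reached 10 counts in 6 or more libraries were tested by edgeR 4.0.16 (R 4.3.3) with TMM factors. The procedure was also run on simulated counts with the same dispersion for all genes and no replicate sets. That run therefore does not show how the fit behaves with sets like those in these libraries. CPM for exact tests had a prior count of 2. Symbols and exon lengths came from GENCODE mapped to GRCh37, with older symbols matched through RefSeq synonyms (ARNTL is given as BMAL1 and ARNTL2 as BMAL2), and promoters from RefSeq. Libraries of 6 per group limit the precision of every SD given. The 10 genes, the other lists and the alternatives were chosen with earlier results of these data known. All 10 genes are named, with the activators, and of the other lists those genes with an adjusted p under 0.05 and no overlap. The ratio of D-box factors was added after the values were seen, and 1 listed gene is not reported here. Alternatives were DESeq2 1.42.0, limma-voom (limma 3.58.1), RLE factors, other count filters, lanes 6 to 8, a replicate block, a covariate for the replicate sets, stricter thresholds and leaving out libraries. The main fit did not take same-numbered replicates as pairs. Their deviations from the group means correlated at 0.0887 to 0.299, and those of other numbers at -0.0558 to -0.0143 on average. A fit with the replicate number as a block is therefore among the alternatives.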

Additional observations from a re-analysis of the deposited data

Results flagged for a closer look

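Reads outside the counts on single genes were compared between the groups in 2 measures. The share of reads that fell on exons of more than 1 gene was 4.158% in the lowest PBKi library, above the highest DMSO library at 4.102%, with means of 4.26% ± 0.0814 in PBKi and 4.03% ± 0.0873 in DMSO (SD, n = 6 each, two-sided exact permutation p = 0.00216). Such reads are not counted for either gene, and NR1D1, DBP, BHLHE40 and PER3 each share 10.2% to 18.0% of their exon bases with another gene, whereas the share of reads lost for each of them was not measured. The share of reads outside annotated genes was 9.303% in PBKi replicate 3 and 8.83% in PBKi replicate 6, above the highest DMSO library at 6.965%, while the group means of 7.33% ± 1.38 and 6.42% ± 0.537 did not pass a test (SD, n = 6 each, two-sided exact permutation p = 0.208). Without PBKi replicates 3 and 6, all 6 calls among the 10 clock genes were made. The part of either share in the results was not tested. In the 74 groups of 6 library values examined, over the 10 genes, the other genes tested by name, the ratios of paralogues and the read shares, 1 library lay far from the other 5, where chance gives about 5% of groups. This was NR3C1 at 2.966 CPM in PBKi replicate 3, above 1.20 to 1.45 CPM in the other PBKi libraries. NR3C1 had few reads and reached the count minimum in 1 DMSO library only, so no fold change is given.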

How the results depend on the processing

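Of 818 alternatives over all values named, 769 kept direction and side of the threshold or, where no test was run, moved by less than 1 SD, 37 kept the direction and lost the call, 7 turned the direction and 5 moved a count by over 1.5 times. No scaling moved the median log2 fold change of all genes by 0.1. The 6 calls among the 10 clock genes were made under every tool, filter, set and left-out library except that NR1D2 was not called in replicates 4 to 6 alone (log2 fold change 0.29, adjusted p = 0.0875 from edgeR), and the count was 3 where a log2 fold change of 0.5 or more in either direction was asked. Leaving out 1 library gave 6 calls each time. BHLHE40 turned to 0.0262 without DMSO replicate 6 (range -0.215 to 0.0262 over single libraries left out). BMAL1 turned to -0.00048 without DMSO replicate 5 (range to 0.0540). The PER1 to PER2 ratio, at -0.01, turned to 0.0727 without PBKi replicates 3 and 6, was -0.0984 in replicates 1 to 3 and turned to 0.0761 in replicates 4 to 6 (both without a test), and ranged from -0.0564 to 0.0450 over single libraries left out. The count of the other clock lists, 26, went to 11 in replicates 4 to 6, 17 without PBKi replicates 3 and 6, 17 at an adjusted p under 0.01 and 3 where a log2 fold change of 0.5 or more was asked, and ranged from 20 to 29 over single libraries left out. The cause of these moves was not tested, and fits on fewer libraries hold fewer samples. The counts of 26 and 3 for the other lists include NR3C1. With the replicate number as a replicate block, the paired fit called the 6 clock genes again (PER1 -0.72, BHLHE41 0.78) and 32 of the other lists. It called 3485 genes higher and 3803 lower of all tested, where the fit without the block called 2921 and 3125. Deviations of same-numbered libraries correlated at 0.0887 to 0.299. Genes at few reads, such as NR3C1 in DMSO, carry the largest counting error.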
